A study of Mus musculus with 6 samples.

Results

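Promoter-flank peaks are hnRNP UL1 ChIP-seq peaks whose point lies between 1 and 3 kb from the nearest annotated transcript start. They were taken as the peaks that the deposited tables annotate as promoter at 1 to 2 kb or at 2 to 3 kb and that carry a gene name. These were 642 peaks of the untreated cells, 1426 after 4 h of LPS and 154 after 10 h, together 2222 of the 18624 complete peaks in the 3 tables. Annotated starts include those of inner, shorter transcripts, so a flank peak can lie deep inside its gene. The choice used distance to a start and no measured signal.

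RAW 264.7 is a mouse macrophage-like cell line derived from a virus-induced tumour. Untreated cells (0 h) and cells that had received lipopolysaccharide (LPS) at 100 ng/ml for 4 h or 10 h were used for chromatin immunoprecipitation with 1 antibody against hnRNP UL1. Each time had 1 ChIP library and 1 input library, and the inputs were not analysed here. The tables name peaks and genes and hold no expression, so the identity of the cells could not be checked against levels of marker genes. With 1 library per time there was no replicate error and no test between times. Intervals in parentheses beside shares are 95% bounds by the exact Clopper-Pearson method and describe counting error alone. Where 3 values stand together without times, they are for 0, 4 and 10 h in that order.

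LPS is a component of the outer membrane of Gram-negative bacteria that macrophages sense through Toll-like receptor 4, which signals through NF-kB, MAP kinases and interferon regulatory factors. Early target genes such as those of cytokines and NF-kB inhibitors are transcribed first, and interferon-response and late effector genes follow. hnRNP UL1 is a nuclear RNA-binding protein known for roles in pre-mRNA processing and in the repair of DNA double-strand breaks. The region just outside a core promoter can hold the first intron, upstream regulatory elements and the starts of other transcripts.

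The choice of points over 1 kb from a start keeps nearly all of them out of promoter windows. RefSeq on GRCm38.p6 nevertheless lists starts that the tables do not use, and 3 flank points lay in a window around such a start (250 bases before to 50 after it). All 3 windows belonged to Gm-numbered non-coding genes on the strand opposite to the gene the table names. They are shown because they are the flank points whose surrounding sequence the reference holds. The windows are those of Gm41235 (chr14:103048691-103048990, minus strand) for Acod1, Gm36428 (chr6:134983596-134983895, minus strand) for Apold1, and Gm40476 (chr12:84158090-84158389, plus strand) for Elmsan1. The window of Nfkbia (chr12:55492598-55492897, minus strand) is added as a core promoter with its own peak at 4 h in a gene that also held flank peaks at 4 h. Each sequence is the window's own strand, 5′ to 3′, credited to RefSeq, and the capitals mark the 2 bases of the peak point.
Acod1 flank peak, 4 h: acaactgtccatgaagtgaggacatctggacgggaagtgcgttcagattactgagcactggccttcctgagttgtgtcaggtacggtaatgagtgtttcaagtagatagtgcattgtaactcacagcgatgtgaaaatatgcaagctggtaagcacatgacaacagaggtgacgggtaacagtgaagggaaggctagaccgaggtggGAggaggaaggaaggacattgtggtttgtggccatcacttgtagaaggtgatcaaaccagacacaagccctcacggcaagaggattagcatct
Apold1 flank peak, 0 h: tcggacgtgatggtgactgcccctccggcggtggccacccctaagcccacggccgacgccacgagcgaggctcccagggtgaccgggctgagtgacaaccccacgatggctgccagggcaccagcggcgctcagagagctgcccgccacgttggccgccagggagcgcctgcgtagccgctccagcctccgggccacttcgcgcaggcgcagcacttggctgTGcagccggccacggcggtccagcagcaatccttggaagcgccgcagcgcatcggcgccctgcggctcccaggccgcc
Elmsan1 flank peak, 0 h: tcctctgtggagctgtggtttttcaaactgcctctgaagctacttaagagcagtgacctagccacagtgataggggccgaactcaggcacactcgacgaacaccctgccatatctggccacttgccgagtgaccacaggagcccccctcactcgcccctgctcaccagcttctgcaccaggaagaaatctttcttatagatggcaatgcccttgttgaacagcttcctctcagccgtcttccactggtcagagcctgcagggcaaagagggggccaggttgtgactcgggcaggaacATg
Nfkbia core promoter peak, 4 h: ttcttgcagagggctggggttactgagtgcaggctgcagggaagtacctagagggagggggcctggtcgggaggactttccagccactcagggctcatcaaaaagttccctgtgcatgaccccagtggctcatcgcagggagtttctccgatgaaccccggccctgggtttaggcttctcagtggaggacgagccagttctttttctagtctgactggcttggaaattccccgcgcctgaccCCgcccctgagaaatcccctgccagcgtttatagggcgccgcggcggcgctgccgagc

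Acod1 encodes the enzyme that makes itaconate in LPS-stimulated macrophages. Its point at chr14:103048782 lay 1805 bp downstream of the Acod1 start and 42 bp upstream of the start of Gm41235, a long non-coding RNA gene read from the other strand. Its window had a GC content of 48.7% with 7 CpG dinucleotides and held GGAAGT, a core form of the site bound by ETS factors such as PU.1, at 1 place. At 0 h the points of Apold1 and Elmsan1 lay 27 bp upstream of the Gm36428 start and 47 bp downstream of the Gm40476 start. The Apold1 window was the most GC-rich of the 4, with 73.3% GC and 33 CpG dinucleotides. The Nfkbia window had 61.0% GC and 15 CpG dinucleotides, and held GGGCGG, the core of the GC box, at 1 place, the TATA-box form TATAAA at 1 place, and the ETS core at 1 place, counted on both strands. None of the 3 flank windows held GGGCGG or the TATA-box form, nor did they hold the CCAAT box. A motif match is a description of the letters in the window.

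With a wider reach, 18 of 2175 flank peaks outside chromosome 18 (0.828%) lay within 1 kb of the RefSeq start of another gene, and all 18 of those starts were on the opposite strand. Of these 18 peaks, 17 met the start of a long non-coding RNA gene. They included 3 at Acod1, of which 1 came from the 10 h table, 417 bp from the Gm41235 start, and 1 at 4 h upstream of Nfkbia, 453 bp from the start of Gm36634. Stat3, a transcription factor of cytokine signalling, Casp8, an initiator caspase, and Fst, a secreted activin antagonist, each had 1 such peak at 4 h. The tables measure from the nearest start of their own annotation, so a start in that annotation would have put such a peak in the class within 1 kb.

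The tables are ordered by gene ID and end at different IDs, so times were set side by side only for nearest genes whose Ensembl number is below 22416 (2097 genes named by at least 1 row, the common range) or, for 4 h and 0 h, below 27620 (3420 genes, the longer range). In the common range flank peaks were 164 of the 1310 peaks of 0 h, 867 of the 5289 of 4 h and 154 of the 1145 of 10 h. These are 12.5% (10.8 to 14.4), 16.4% (15.4 to 17.4) and 13.4% (11.5 to 15.6) of the peaks of each time. The 4 h share was above the 0 h share beyond counting error, while the 10 h interval overlapped both others. Within the 4 h list itself, the lower and upper parts of the gene IDs gave 18.2% (16.7 to 19.9) and 14.9% (13.7 to 16.3). These do not overlap either, so counting error understates the spread, and intervals without overlap do not establish a difference between times. In the longer range flank peaks were 1426 of 9016 at 4 h and 278 of 2216 at 0 h, or 15.8% (15.1 to 16.6) and 12.5% (11.2 to 14.0). The whole 0 h table gave 642 of 5671 named peaks, 11.3% (10.5 to 12.2). The number of peaks in a list can follow sequencing depth, antibody yield and the calling threshold. None of these is given in the sources used here, and with 1 library per time they cannot be told apart from the time with LPS.

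Against the core promoter the difference between times was larger. For every peak within 1 kb of a start there were 0.363, 0.818 and 0.644 flank peaks. Expressed as a share of all peaks within 3 kb of a start, flank peaks made up 26.6% (23.2 to 30.3), 45% (42.8 to 47.2) and 39.2% (34.3 to 44.2). The 0 h interval did not overlap those of the other times. In 500 bp bins the peaks at 0 h stood in a narrow summit, with 19.4% of all peaks in the first 500 bp downstream of a start, against 8.02% at 4 h and 8.91% at 10 h. Each flank bin held between 0.84% and 2.29% of the peaks at 0 h, between 1.76% and 2.65% at 4 h, and between 0.786% and 2.36% at 10 h. The flanks of the 3 times therefore lay close together per bin, and the main contrast between times was the height at the start itself.

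**Figure D1:**
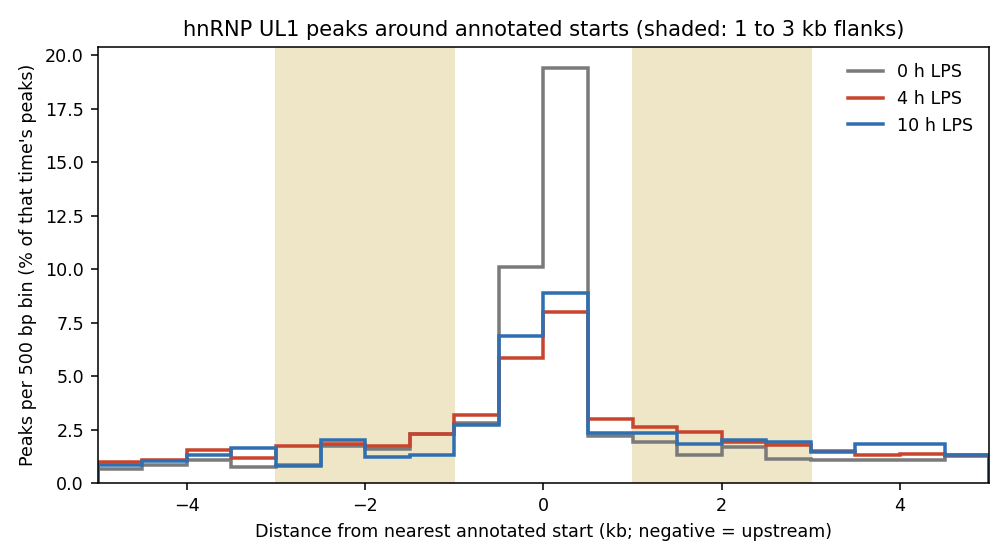
Share of each time's peaks (vertical axis, % per 500 bp bin, common range) against the distance from the nearest annotated start in kb, with negative values upstream and the 1 to 3 kb flanks shaded. The 0 h line reaches 19.4% just downstream of the start, against 8.02% at 4 h and 8.91% at 10 h, while in the shaded flanks no bin exceeds 2.65%.

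The upstream share differed between 2 ways of placing peaks, which cover partly different sets of peaks. From the tables' nearest start, upstream peaks were 85 of 164 at 0 h, 403 of 867 at 4 h and 61 of 154 at 10 h, or 51.8% (43.9 to 59.7), 46.5% (43.1 to 49.9) and 39.6% (31.8 to 47.8). Placed by the RefSeq 5′ end of the gene, peaks at 1 to 3 kb lay upstream in 29.6% (21.2 to 39.2), 34.4% (30.1 to 38.9) and 24.1% (15.1 to 35) of cases. Of these peaks only 59 of 108, 340 of 462 and 53 of 79 were flank peaks by the nearest start. The 2 sets of upstream shares therefore do not compare the same peaks. From the nearest start, the upstream share was lower at 10 h than at 0 h by point estimate, but the intervals overlapped. The 4 h and 10 h intervals lay below 50%. At 0 h the flank share upstream was above that of peaks within 1 kb, of which 37.8% (33.3 to 42.5) lay upstream. At 4 h and 10 h the flank and core shares overlapped, with 45.1% and 46.0% of the peaks within 1 kb upstream. Split by distance, upstream peaks made up 54.8%, 44.3% and 37.7% of the peaks at 1 to 2 kb, and 47.9%, 49.2% and 41.6% of those at 2 to 3 kb. The longer range gave 45.7% upstream at 4 h and 50% at 0 h, and the whole 0 h table gave 50.5%.

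Most flank peaks were measured from a start over 500 bp from the RefSeq 5′ end of their gene, called an inner start here. Such a start can also lie outside the gene, as for Rcbtb2 at 0 h, where it was 15708 bp upstream. The gene's outer 5′ end in RefSeq was within 500 bp of the annotated start for 33.5% (26.4 to 41.3) of flank peaks at 0 h, 35.6% (32.4 to 38.9) of those at 4 h, and 32.7% (25.3 to 40.7) of those at 10 h. For peaks within 1 kb the shares were 65.6%, 56.1% and 56.1%, above the flank shares beyond counting error at each time. Accordingly 61.0%, 58.5% and 63.4% of flank peaks lay over 3 kb from the gene's own 5′ end, against 19.3%, 31.0% and 31.4% of the peaks within 1 kb. The median distance of these far flank peaks from the 5′ end was 18.1 kb, 17.7 kb and 26.3 kb. Most flank peaks lay within the gene body, 78.7%, 76.8% and 83.7% of them.

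**Figure D2:**
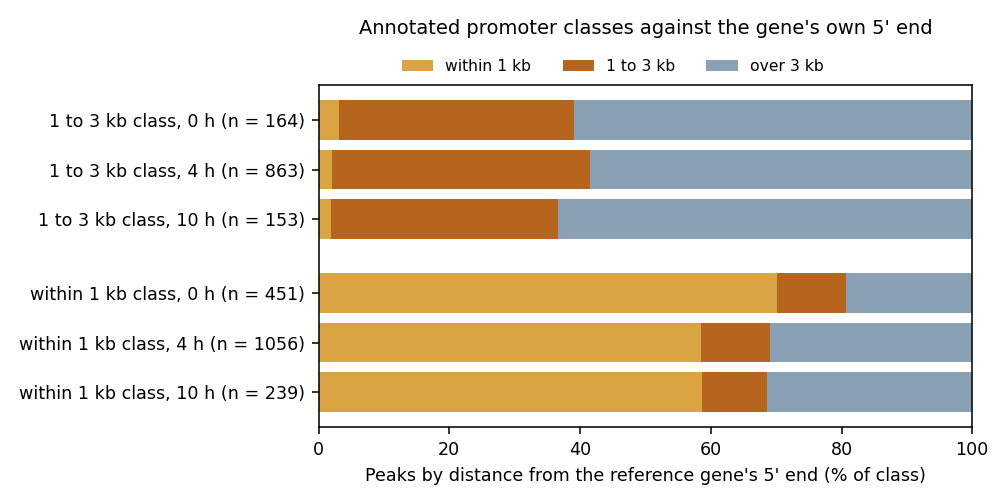
Peaks annotated 1 to 3 kb from a start (upper bars) and within 1 kb (lower bars) at 0, 4 and 10 h, split by distance from the RefSeq 5′ end of the gene (horizontal axis, % of the class, n matched peaks). The part over 3 kb away is 61.0%, 58.5% and 63.4% of the flank class and 19.3%, 31.0% and 31.4% of the class within 1 kb.

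The higher flank share at 4 h depended on which starts were counted. When all peaks were placed by the RefSeq 5′ end alone, those at 1 to 3 kb were 8.26% (6.82 to 9.88) of the 0 h peaks, 8.76% (8.01 to 9.55) of the 4 h peaks and 6.91% (5.51 to 8.53) of the 10 h peaks, with overlapping intervals. As a share of the peaks within 3 kb of a 5′ end they were still 25.2% (21.1 to 29.6), 41.8% (38.9 to 44.8) and 35.6% (29.3 to 42.3). In the tables' own classes, flank peaks of inner starts were 8.32% (6.88 to 9.95), 10.5% (9.70 to 11.4) and 9% (7.40 to 10.8) of all peaks, and those of outer starts 4.20% (3.18 to 5.43), 5.80% (5.19 to 6.47) and 4.37% (3.26 to 5.72). The upstream shares of the 2 kinds of start lay within each other's intervals, with 51.4%, 45.7% and 39.8% upstream for inner starts and 52.7%, 48.2% and 38.0% for outer starts.

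At 4 h a larger share of genes with a flank peak than of genes with farther peaks and no flank peak also held a peak within 1 kb, called a core peak here. At 0 h 32 of 139 genes with a flank peak also had a peak within 1 kb in the same table, 23% (16.3 to 30.9), at 4 h 271 of 637, 42.5% (38.7 to 46.5), and at 10 h 25 of 137, 18.2% (12.2 to 25.7). The background is the share among genes whose peaks outside the core all lay beyond 3 kb, which was 21.9% (17.7 to 26.6), 27.9% (24.9 to 31.0) and 11.2% (8.20 to 14.7). The flank share was thus near the background at 0 h and overlapped it at 10 h, and lay above it beyond counting error at 4 h. Genes with more peaks have more chances to hold both kinds. Among genes with exactly 1 peak outside the core, the share was 30.9% (25.1 to 37.1) for flank genes and 23.9% (20.1 to 27.9) for the others at 4 h, with overlapping intervals. A peak within 1 kb of the very start that the flank peak was measured from was found in 13.7%, 27.2% and 8.03% of flank genes. Seen from the core, 7.84%, 32.3% and 11.2% of genes with a peak within 1 kb also held a flank peak. The median gap between a flank peak and the nearest core peak of the gene was 2440 bp, 2449 bp and 4076 bp. Genes with flank peaks both upstream and downstream of their starts numbered 11, 92 and 6.

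**Figure D3:**
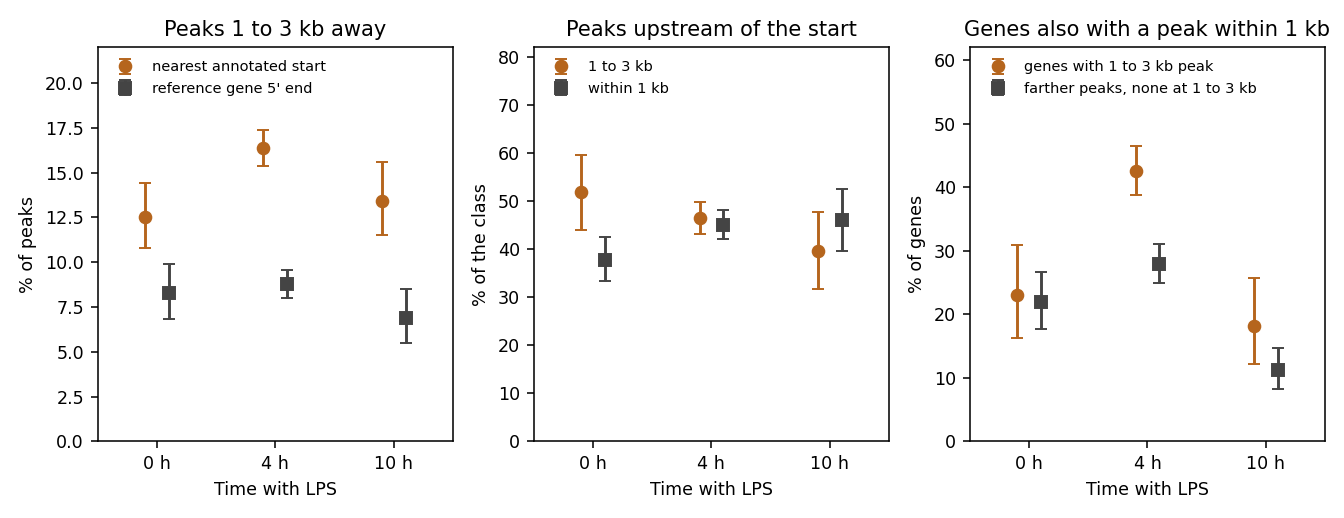
From left to right: share of peaks 1 to 3 kb from the nearest annotated start or from the RefSeq 5′ end, share upstream among peaks at 1 to 3 kb and within 1 kb, and share of genes that also hold a peak within 1 kb, each in % at 0, 4 and 10 h with exact 95% intervals as bars. The 4 h value stands apart in the right panel, with 42.5% of genes with a flank peak against 27.9% of genes with farther peaks and none at 1 to 3 kb. Among genes with exactly 1 peak outside the core, not drawn, the 4 h shares were 30.9% and 23.9%, with overlapping intervals.

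Flank peaks touched more genes at 4 h than at the other times. A flank peak was present in 139 genes at 0 h, 637 at 4 h and 137 at 10 h, which is 6.63%, 30.4% and 6.53% of the 2097 genes of the common range, and these shares serve as the background for the gene groups below. In the longer range 1044 genes at 4 h and 240 at 0 h had one, 30.5% and 7.02% of 3420. A single flank peak was the rule, in 90.6%, 77.1% and 92.7% of these genes, and 3 or more were found in 5, 44 and 3 genes. Of the 791 genes with a flank peak at any time, 81 belonged to the 0 h table alone, 528 to the 4 h table alone and 69 to the 10 h table alone. A peak of any class was present in 789, 1830 and 678 genes, so these counts are not comparable between times. The same split was not counted for genes with a peak of any class, so these counts describe no trait particular to flank peaks. The 4 h and 0 h lists had 54 genes in common, 8.48% of the 4 h genes and 38.8% of the 0 h genes. Among all 789 genes with a 0 h peak, 29.7% (26.5 to 33) had a flank peak at 4 h. The 10 h and 4 h lists had 64 in common, 46.7% of the 10 h genes and 10.0% of the 4 h genes. Among all 1830 genes with a 4 h peak, 6.17% (5.12 to 7.38) had a flank peak at 10 h. Of the 4 h genes 403, or 63.3% (59.4 to 67.0), had no peak of any class at 0 h, against 66.6% of all genes with a 4 h peak, so flank genes were not set apart by this. A flank peak at 4 h was found in 54 of 139 genes (38.8%, 30.7 to 47.5) that had one at 0 h, in 27.5% (23.2 to 32.1) of genes with a core peak at 0 h and in 30.7% (25.3 to 36.5) of genes with neither at 0 h but farther peaks, with overlapping intervals.

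Exactly 9 genes held flank peaks at all 3 times, and the number with a peak of any class at all 3 times was not counted. Psap encodes prosaposin, the precursor of the lysosomal saposins, and Ctsb encodes cathepsin B, a lysosomal protease. Psap had 8, 8 and 3 flank peaks, and 2, 3 and 1 peaks within 1 kb. Its points ran through the gene from 2.08 to 9.59 kb past the 5′ end at 0 h, with 1 further point 1.12 kb upstream at 4 h. Ctsb had 3, 3 and 5 flank peaks and 2, 3 and 1 peaks within 1 kb. The flank peaks of Ctsb formed a group 1.54 to 2.86 kb past the 5′ end and another at 11.0 to 11.7 kb, with 1 point at 15.8 kb at 10 h.

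Mbnl2, a muscleblind-family splicing regulator, had 1, 9 and 2 flank peaks, the most of any gene of the common range at 4 h, and no peak within 1 kb at 4 h or 10 h. Its 4 h points were spread from 1.75 to 106 kb past the 5′ end, and 9 of 9 lay inside the gene. Itm2b, an integral membrane protein gene, had 2, 3 and 1 flank peaks, and Myb, a transcription factor of blood progenitors, had 2, 2 and 1. Zmiz1, a transcriptional coactivator, had 1, 2 and 1. Mov10, an RNA helicase, Rcbtb2 and Tac4, a tachykinin precursor, had 1 at each time. The 10 h points of Myb and Mov10 lay upstream of the gene, 1.56 and 1.88 kb from the 5′ end, and those of 4 h and 0 h inside it.

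**Figure D4:**
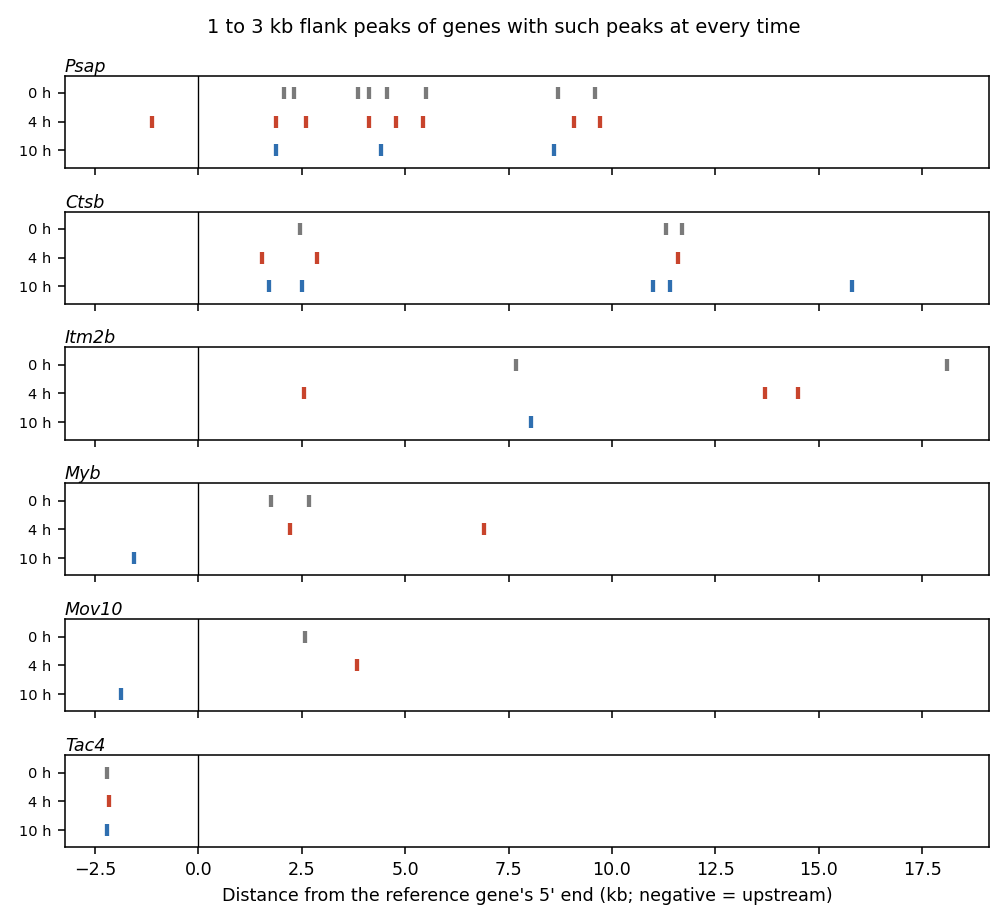
Flank peak points of Psap, Ctsb, Itm2b, Myb, Mov10 and Tac4, 6 of the 9 genes with such peaks at every time, by distance in kb from the RefSeq 5′ end (negative is upstream), with 0, 4 and 10 h in separate rows. The 3 points of Tac4 lie 2.21, 2.17 and 2.2 kb upstream, those of Psap and Ctsb recur inside the gene, and those of Myb and Mov10 are upstream at 10 h.

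Few flank peaks returned at the same place. A peak was called shared when the other table had a point within 500 bp. Of the flank peaks at 4 h, 28 of 867 were shared with 0 h, 3.23% (2.16 to 4.63), against 12.1% (10.2 to 14.2) of the peaks within 1 kb. Flank peaks here were like intronic (2.83%) and distal intergenic peaks (3.24%). In the other direction 32 of 164 flank peaks at 0 h, 19.5% (13.7 to 26.4), had a 4 h point within 500 bp, against 27% (23 to 31.3) of core peaks. The lists differ in length, with 5289 peaks at 4 h and 1310 at 0 h, so the shares of the 2 directions are not comparable with each other. Of the 10 h flank peaks 21 of 154, 13.6% (8.64 to 20.1), were shared with 4 h and 8, or 5.19% (2.27 to 9.98), with 0 h, against 28.9% (23.2 to 35.1) and 14.2% (10.1 to 19.3) of core peaks. The intervals of the flank and core classes did not overlap for 4 h with 0 h, 10 h with 4 h and 10 h with 0 h, each taken as a share of the later list. Taken as a share of the 0 h list they overlapped, both with 4 h, as given above, and with 10 h, where 7.32% (3.84 to 12.4) of flank and 7.52% (5.27 to 10.4) of core peaks were shared. For 4 h peaks near 10 h peaks the values were 3.34% (2.25 to 4.77) of flank and 7.08% (5.61 to 8.79) of core peaks, without overlap. The shared partners were mostly flank peaks too, 26 of the 28 for 4 h with 0 h, 21 of 21 for 10 h with 4 h and 8 of 8 for 10 h with 0 h. Without the peaks of Psap and Ctsb the shares were 2.22% for 4 h with 0 h, 11% for 10 h with 4 h and 1.37% for 10 h with 0 h. These genes thus held 6 of the 8 shared peaks for 10 h with 0 h, and a minority for 4 h with 0 h and 10 h with 4 h. In the 0 h list, 12 of 164 flank peaks were shared with 10 h, and 4 of 153 (2.61%) without these genes.

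The shared places had few genes. For 4 h with 0 h they were 26 flank peaks in 18 genes, for 10 h with 0 h 8 peaks in Ctsb, Itm2b, Psap and Tac4, and for 10 h with 4 h 21 peaks in 17 genes, among them Acod1, Cd274, Ctsz, Spi1, Tnip1 and Lims1. A flank place present at all 3 times was found 5 times, as a pair in Psap, a pair in Ctsb and 1 upstream of Tac4. The points of Tac4 were at chr11:95259319 at 0 h, chr11:95259360 at 4 h and chr11:95259330 at 10 h, a span of 41 bp and the tightest of these places. The first Psap place, at chr10:60279707, chr10:60279498 and chr10:60279504, spanned 209 bp. Gpr137b, a lysosomal membrane protein gene, had 2 places at 4 h that lay 4 and 38 bp from those of 0 h, one 27.1 kb and the other 23.4 kb past its 5′ end.

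Apart from the recurrent genes, flank peaks at 0 h clustered in Cdh23, a cadherin of inner-ear hair bundles, with 5, 3 and 0 peaks. The 0 h points lay 312 to 394 kb past the Cdh23 5′ end, in its 3′ part, save for 1 upstream of the gene. The 3′ end of Cdh23, at chr10:60302748, lies next to that of Psap, at chr10:60302600. The nearest 0 h points named for Cdh23 were at chr10:60302959 and chr10:60304048. Gpr137b had 3, 2 and 0 flank peaks among 11, 10 and 8 peaks in all. 4930404N11Rik had 3, 0 and 0 flank peaks and 1, 3 and 1 core peaks. Its 0 h flank point at chr10:81367543 lay 193 bp from a 4 h flank point named for another gene, Fzr1. At 4 h the genes of the common range with the most flank peaks after Mbnl2 and Psap were Lims1 and Cd40. Lims1 encodes an adaptor of integrin adhesions, and Cd40 a co-stimulatory receptor induced on activated macrophages. Lims1 had 0, 7 and 1 and Cd40 had 0, 7 and 0. Cd40 had no core peak at 0 h or 4 h and 1 at 10 h, and its 7 points lay between 1.15 kb upstream and 6.05 kb past the 5′ end. At 10 h Ncor1, a corepressor of nuclear receptors, shared the top with Ctsb. It had 0, 1 and 5 flank peaks, the 10 h points lying 71.2 to 137 kb past its 5′ end. Nfat5, the transcription factor of the osmotic stress response, and Arid3b, a DNA-binding protein, had 0, 0 and 2.

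**Figure D5:**
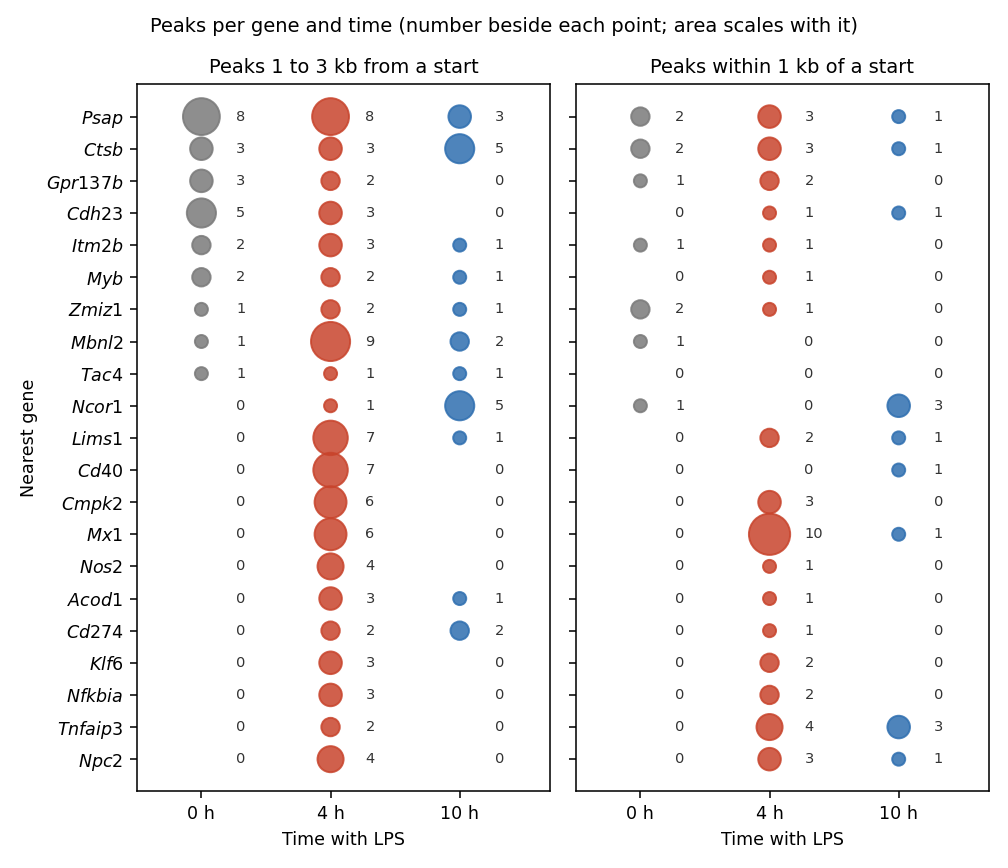
Number of peaks 1 to 3 kb from a start (left) and within 1 kb (right) for 21 named genes (rows) at 0, 4 and 10 h with LPS, with point area and the number beside it giving the count. Psap and Ctsb have flank peaks at every time, whereas Cd40, Mx1, Cmpk2 and Nos2 have 7, 6, 6 and 4 at 4 h and none at 0 h or 10 h.

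Flank peaks in the gene lists were counted by time. The lists hold only members that some row names, and they were chosen with earlier results known, so their counts are descriptions. Of 14 early LPS-induced genes 1 had a flank peak at 0 h, 8 at 4 h and 1 at 10 h, and of 10 late LPS-induced genes 0, 7 and 2. The background shares are the 6.63%, 30.4% and 6.53% given above. Klf6, a zinc-finger transcription factor, and Nfkbia, the NF-kB inhibitor IkB-alpha, had 3 flank peaks each at 4 h and none at the other times. Nfkbia also had 2 core peaks at 4 h, among them the point printed above, 7 bp upstream of its annotated start. Tnfaip3, the ubiquitin-editing inhibitor A20, had 0, 2 and 0 flank peaks and 0, 4 and 3 core peaks. Fos, an immediate-early transcription factor, was the member with a flank peak at 0 h, and Ier3, a stress-response gene, the one at 10 h.

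Among the late genes, Nos2, the inducible nitric oxide synthase, had 0, 4 and 0 flank peaks. They stood 1.11 kb upstream of its 5′ end and 2.02, 5.58 and 6.09 kb past it, beside 1 core peak at 4 h. Acod1 had 0, 3 and 1 flank peaks. At 4 h the Acod1 points lay 2.62 kb upstream and 1.77 and 2.43 kb past the 5′ end, and the 10 h point at 2.15 kb lay between those last 2. Cd274, the immune checkpoint ligand PD-L1, had 0, 2 and 2, and its points at chr19:29369862 at 10 h and chr19:29369809 at 4 h were 53 bp apart. Aoah, an enzyme that removes acyl chains from LPS, had 0, 3 and 0, and Mmp14, a membrane metalloprotease, 0, 2 and 0.

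Of 6 interferon-response genes named in the common range 0, 3 and 0 had a flank peak, with 0, 13 and 0 peaks. Mx1, an antiviral dynamin-like GTPase, had 0, 6 and 0 flank peaks and 0, 10 and 1 core peaks. Cmpk2, a mitochondrial nucleotide kinase induced by interferon, had 0, 6 and 0 flank and 0, 3 and 0 core peaks, and its neighbour Rsad2, the antiviral enzyme viperin, had 1 flank peak at 4 h. In the longer range 7 of 11 members had a flank peak at 4 h and 1 at 0 h. Mx2 had 9 at 4 h and 0 at 0 h, and Ifih1, the RNA sensor MDA5, had 6 at 4 h and 1 at 0 h. In the whole 0 h table, where 561 of 3513 named genes (16%) had a flank peak, 3 of 9 interferon-response genes did, namely Ifih1, Ifit2, an antiviral RNA-binding protein, and Irf8, a transcription factor of myeloid cells. The Mx1, Mx2 and Tmprss2 genes lie side by side on chromosome 16, where the 4 h table listed 57 peaks for them, of which 20 were flank peaks and 13 core peaks, and the 0 h table listed none. The 20 flank points lay within 142 kb.

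Of 10 TLR4, NF-kB and MAPK signalling genes 1, 5 and 1 had a flank peak. Map2k1, the kinase MEK1, had 0, 3 and 0, and Tnip1, a partner of A20, had 0, 2 and 1. The lone signalling gene at 0 h was Mapk8, the kinase JNK1, and at 10 h it was Tnip1. Of 9 macrophage identity genes 2, 5 and 2 had one. Besides Ctsb these included Spi1, the macrophage transcription factor PU.1, with 0, 1 and 1, the 10 h and 4 h points being 286 bp apart. Ctsd had 1, 0 and 0, and Cd163, Lpl and Fcgr1 had 0, 1 and 0 each. Of 9 lysosome genes 3, 4 and 2 had one, with 10, 16 and 4 peaks, of which Psap held 8, 8 and 3. Npc2, the lysosomal cholesterol carrier, had 0, 4 and 0, and Ctsz, a lysosomal protease, 0, 2 and 1. Lamp2, a lysosomal membrane protein, had 0, 2 and 0, and Tfe3 and Atp6v0a1 had 1, 0 and 0 each.

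Among splicing factor genes the flank peaks lay mostly in Mbnl2. Of 12 hnRNP and splicing factor genes 1, 6 and 1 had a flank peak, and Mbnl2 held 1, 9 and 2 of the 1, 14 and 2 peaks. The others with 1 peak at 4 h were Hnrnpa2b1, Ptbp1, Hnrnph1, Ewsr1 and Taf15, which all encode RNA-binding proteins. Of 4 DNA damage response genes 0, 1 and 0 had one, the member being Mdm2, the ubiquitin ligase of p53, and of 6 ribosomal protein genes 0, 1 and 0, the member being Rps27a. Of 6 housekeeping genes 2, 3 and 0 had one, with Ubb, a ubiquitin gene, and Tbp, the TATA-box binding protein, at both 4 h and 0 h. Of markers of other cell types, Cd3g of the T and B cell list (1 of 3 named members) had 1 flank peak at 4 h, and Apoa2, the hepatocyte list's sole named member, had 1 at 4 h and 1 at 10 h. In the longer range 2 of 7 T and B cell genes, Cd3g and Cd4, and 2 of 2 hepatocyte genes, Apoa2 and Cyp2e1, had a flank peak at 4 h and none at 0 h, and Apoa1, an apolipoprotein, had 1 in the whole 0 h table. No neuronal gene was named in the common range, and none of 4 in the longer range had a flank peak.

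Some genes had flank peaks without a core peak at any time, counted from the nearest annotated start. The 6 with the most were Tmprss2, a membrane serine protease, with 0, 5 and 0, Abr with 0, 5 and 0, Htra1, a secreted serine protease, with 0, 4 and 0, Jup, the junction protein plakoglobin, with 1, 3 and 0, and Arid5b, a DNA-binding cofactor, and BC067074 with 0, 3 and 1 each. Measured from the RefSeq 5′ end, the 4 h point of Arid5b at chr10:68279948 lay 0.593 kb upstream, which is within 1 kb. In Abr the points were 42.8 to 189 kb past the 5′ end, all inside the gene. Htra1 had 1 point 1.36 kb upstream and 1 at 1.77 kb past its 5′ end, and 2 near an inner start at 43.8 and 44.4 kb. Tmprss2 had 4 of its 5 points between 90.7 and 95.0 kb past its 5′ end, at its 3′ end next to Mx2.

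The core promoters of genes with flank peaks were GC-rich at every time. A promoter was called CpG-rich when its 300 base window had at least 50% GC and an observed to expected CpG ratio of at least 0.6, with 1 window per gene. Of flank genes with a window, 69.6% (59.7 to 78.3) of 102 at 0 h, 65.0% (60.8 to 69.2) of 515 at 4 h and 72.1% (62.8 to 80.2) of 111 at 10 h were CpG-rich, against 45.7% of 17492 protein-coding and 34.1% of all 27025 windows. For genes with a core peak the shares were 79.1%, 70.2% and 77.9%, and for genes with neither flank nor core peaks but farther ones 66.4%, 62.4% and 66.7%, and each overlapped the flank interval of its time. GGGCGG was present on either strand in 65.7%, 65.0% and 72.1% of flank gene windows, against 46.3% of protein-coding windows. TATAAA was present in 10.8%, 8.93% and 6.31%, against 13.3%, CCAAT in 32.4%, 33.6% and 26.1%, against 39.0%, and GGAAGT in 28.4%, 23.3% and 27%, against 25.1%. The windows describe the genes named by the peaks, since the flank points themselves lay outside them.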

How the data were processed

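Each of the 3 ChIP samples has 1 deposited peak table; the inputs were not analysed. The submitters' processing notes name CASAVA 1.8, BWA 0.7.12 and MACS2 2.1.0 as tools and GRCm38 (mm10) as the genome; their roles, settings and thresholds are not given in the sources used here. Per the file headers the authors deposited positions of points 2 bp wide, an annotation class, the nearest transcript and the distance to its start. Whether a point is the summit or the middle of a peak is not stated. No column holds heights or reads, so depth is unknown and every peak counted alike. The last line of the 4 h table is broken off and was not used.

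Peaks, genes and shares were counted with pandas 2.3.3 and scipy 1.17.1, by code tested on simulated lists. Promoter windows on chromosome 18 were not used here. Of the named genes 99.3% were matched by symbol and chromosome to the RefSeq annotation of GRCm38.p6, which gave gene ends and promoter windows.

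The members, lists and rules were chosen with earlier results of these data known. Genes were named if they had flank peaks at all 3 times, had the most at a time, had a place shared between times, were among up to 4 members of a list, or had the most without a core peak. Genes named beyond these, such as those past the common range and the other list members, were chosen after their values were seen.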

Additional observations from a re-analysis of the deposited data

Results flagged for a closer look

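The 0 h table held 327 peaks annotated 1 to 3 kb from a start that carry no gene name, against 3 in the 4 h table and 3 in the 10 h table. They lie outside every comparison above, which used peaks with a gene name. The 0 h table runs to a far higher gene ID than the other tables, and 2754 of its 8425 peaks carry no name, so the counts of unnamed flank peaks are not comparable between times.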

How the results depend on the processing

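Of 96 alternatives, 66 stayed within the interval of the reported value or within 1.5 times a reported count, and 30 moved beyond. The 66 include alternatives that only restate the same information and returned the reported counts unchanged. These were the class read from the distance, the side read from gene span and strand, and genes counted by name. They do not bear on how stable the results are. Placing peaks by RefSeq 5′ ends was chosen after seeing the data and selects a partly different set of peaks. It gave flank shares of 8.26%, 8.76% and 6.91% at 0, 4 and 10 h, and upstream shares of 29.6%, 34.4% and 24.1%. Shares of genes also holding a core peak were 11.3%, 31.2% and 10.4%. The 4 h flank share was 18.2% in the lower and 14.9% in the upper part of the gene IDs. A core peak at any time instead of the same time gave 56.8%, 52.9% and 60.6% of flank genes, and a core peak at the same start, also chosen after seeing the data, 13.7%, 27.2% and 8.03%. With 200 bp in place of 500 bp, shared flank peaks were 12.8% for 0 h near 4 h, 3.05% for 0 h near 10 h, 1.5% for 4 h near 10 h and 7.79% for 10 h near 4 h. With 1000 bp they were 4.84% for 4 h near 0 h, 6.34% for 4 h near 10 h and 22.7% for 10 h near 4 h. Without Psap and Ctsb, chosen after seeing the data, they were 13.7% for 0 h near 4 h, 2.61% for 0 h near 10 h and 1.37% for 10 h near 0 h. The longer range gave 1044 genes at 4 h, 240 at 0 h and 87 at both, as it holds more genes. Beyond such changes of construction the cause was not tested. No paired analysis was possible because each time has 1 library and no result comes from a test. Depth is unknown, so a missing peak does not show a missing signal.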

Other observations

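Beyond the common range, the genes with the most flank peaks at 4 h after Mx2 were Slco3a1, an organic anion transporter, and Slc25a12, a mitochondrial aspartate-glutamate carrier, with 8 each at 4 h and 0 at 0 h. Zeb2, a transcription factor of macrophage identity, had 6 flank peaks at 4 h and 1 at 0 h, a small part of its 45 and 37 peaks. Atf3, a stress-induced transcription factor, had 3 and 2, and its points at chr1:191180285 at 4 h and chr1:191180260 at 0 h lay 3.05 and 3.07 kb past the 5′ end. Nfkbie, the NF-kB inhibitor IkB-epsilon, had 3 and 1, and Tfrc, the transferrin receptor, 3 and 1. Among lysosome genes, Npc1, a lysosomal cholesterol transporter, had 2 and 2, and Tfeb, a transcription factor of lysosome genes, 1 and 2.

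In the part of the 0 h table with no counterpart at other times, Gpnmb, a transmembrane glycoprotein of macrophages, had 4 flank peaks among 14 peaks, all inside the gene. Gm49369 also had 4, at chr7:142378549 to chr7:142384773. These points lay inside the span of Ctsd, a macrophage identity list member on the same strand (chr7:142375910-142387827). Syf2, a spliceosome component, had 3, all upstream of the gene. Flank peaks had another peak of the same time within 2 kb in 20.1% (14.3 to 27.1), 33.3% (30.2 to 36.6) and 13% (8.12 to 19.3) of cases at 0, 4 and 10 h, against 15.0%, 31.9% and 8.79% of core peaks, with overlapping intervals. Genes with flank peaks had median lengths of 36.6, 29.0 and 37.5 kb, between those of genes with core peaks (29.0, 26.5 and 29.1 kb) and of genes with farther peaks and none at 1 to 3 kb (42.4, 37.2 and 42.6 kb).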
